A study of Mus musculus with 11 samples.

Results

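The transcriptome of TXNDC5-knockout (KO) AML12 cells was compared with that of wild-type (WT) AML12 cells over all genes with enough reads, in 7 of the 11 libraries of the series: KO 5, 6, 7 and 8, and WT 5-6, 7 and 8. AML12 is a line of mouse hepatocytes, derived from an animal that carried a transgene for human TGF alpha. The KO cells had been transfected with a CRISPR/Cas9 plasmid against *Txndc5* and with a repair plasmid that puts a puromycin resistance gene into the locus, and resistant cells were selected by repeated puromycin; GEO's labels call this genotype a knockdown. For the WT cells no transfection or selection is described, so loss of TXNDC5 and the steps of transfection, selection and possible cloning cannot be told apart. All cells were grown in the same medium with serum, insulin, transferrin, selenium and dexamethasone. Nothing states that the libraries came from separate cultures, so p-values measure the spread between these libraries only. Whether the KO libraries stem from a single clone is not stated.

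Summing the counts of entries that share a gene name gave 24849 genes, and 13359 had enough counts to be tested. Levels are CPM values, counts scaled to a common library total, after TMM scaling, in the order KO 5, 6, 7, 8 and WT 5-6, 7, 8. A gene is called where the Benjamini-Hochberg adjusted p-value of edgeR's quasi-likelihood test is under 0.05, and log2 fold changes are KO against WT with their standard error (SE). Of the tested genes, 55.1% were called, 26.7% higher and 28.4% lower in the KO cells, and in 55.1% the KO and WT libraries did not overlap. With an absolute log2 fold change over 1 as well, 25.6% were called, 10.6% higher and 15% lower. Each count of a gene list below is to be read against these shares. They differed by chromosome: on chromosome 7 53.2% of tested genes were called higher and 10.3% lower, and on chromosome 18 11.1% and 46.2%. Libraries held between 29840366 and 38422243 counts, and a gene at 0 counts may still hold up to 3, at most 1.01e-05% of a library (a limit set by counting error alone). Newly assembled entries of the table, which carry no gene name, took 11.89% to 13.37% of the KO counts and 18.79% to 25.25% of the WT counts. Scaled to library totals instead, the tested genes had a median of 0.38 rather than -0.03, and 72.8% of the calls were higher rather than 48.5%, so every change below is relative to the bulk of genes. Among the genes named below, the lower calls of *C3*, *Fth1*, *P4hb*, *Polr1d*, *Xbp1*, *Hif1a*, *Cd14* and *E2f1* were lost with library totals. WT 8 stood apart from the other WT libraries, with -28.3 on the second principal component (10.1% of the variance) against 16.5 for WT 5-6 and 4.29 for WT 7. *Txndc5* itself had 9.87, 8.26, 12.5 and 9.1 CPM in KO cells and 143, 138 and 140 in WT cells, with no overlap.

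TXNDC5 is a disulfide isomerase of the endoplasmic reticulum (ER), where the albumin, transferrin, apolipoproteins and clotting factors that hepatocytes secrete are folded and oxidised. Besides secretion, the hepatocyte is known for making cholesterol and fat, burning fatty acids, handling ammonia and amino acids, and clearing drugs. Dividing liver cells pass through replication and mitosis programmes driven by E2F and FOXM1-type factors. Amino acid shortage and ER stress are read by ATF4, sterol shortage by SREBP2, low oxygen by HIF-1 and inflammatory cytokines by STAT3 and C/EBP proteins. The gene lists follow these programmes, 36 in all, plus 6 lists of cell type markers, with 1663 distinct members. Members with too few counts were not tested, and a count over the tested members is not one over the whole list.

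Promoters of some genes of the replication and mitosis, ATF4, cholesterol and hypoxia lists are shown first. They hold the regulatory letters through which such programmes are known to be read. These lists, and the genes printed from them, were chosen with results of these data known. Windows of the ribosome biogenesis, glycolysis, plasma protein and acute-phase lists were searched too and are not printed. Windows from 250 bases before to 50 bases after the start site of each gene were taken from RefSeq for GRCm38.p6, and 9866 of the tested genes had one. Both strands were searched for a cell cycle homology region (TTTGAA), an E2F site (TTTGGCGC), a CCAAT box (CCAAT), the ATF4 composite element (TGATGNAA), the sterol response element (TCACNCCAC) and the core of the hypoxia response element (ACGTG). None of these motifs contains another. The 250 bases before the start are printed 5′ to 3′ on the gene's strand, in lower case with the named motif, in either orientation, in capitals: the cell cycle homology region in *Mki67* and *Cdc20*, the E2F site in *Mcm5*, the ATF4 element in *Asns* and *Chac1*, the sterol element in *Hmgcs1* and the hypoxia core in *Bnip3*, *Ero1a* and *Pgk1*. In *Bnip3* the matches on the 2 strands overlap.
Mki67 promoter, chr7:135716380-135716629, minus strand: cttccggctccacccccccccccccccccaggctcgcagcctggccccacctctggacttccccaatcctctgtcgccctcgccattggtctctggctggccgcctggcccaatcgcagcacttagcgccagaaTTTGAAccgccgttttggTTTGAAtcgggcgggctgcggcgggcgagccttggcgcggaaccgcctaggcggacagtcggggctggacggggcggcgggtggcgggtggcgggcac
Cdc20 promoter, chr4:118437344-118437593, minus strand: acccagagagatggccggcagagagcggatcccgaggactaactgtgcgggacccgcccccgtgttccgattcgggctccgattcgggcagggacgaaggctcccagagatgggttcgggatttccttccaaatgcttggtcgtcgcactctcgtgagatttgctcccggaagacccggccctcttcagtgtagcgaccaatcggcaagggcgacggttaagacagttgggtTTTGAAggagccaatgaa
Mcm5 promoter, chr8:75109259-75109508, plus strand: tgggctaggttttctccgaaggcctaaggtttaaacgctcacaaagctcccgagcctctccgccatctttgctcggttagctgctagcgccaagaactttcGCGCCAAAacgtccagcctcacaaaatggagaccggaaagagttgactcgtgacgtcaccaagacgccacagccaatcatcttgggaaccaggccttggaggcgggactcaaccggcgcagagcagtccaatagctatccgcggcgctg
Asns promoter, chr6:7693210-7693459, minus strand: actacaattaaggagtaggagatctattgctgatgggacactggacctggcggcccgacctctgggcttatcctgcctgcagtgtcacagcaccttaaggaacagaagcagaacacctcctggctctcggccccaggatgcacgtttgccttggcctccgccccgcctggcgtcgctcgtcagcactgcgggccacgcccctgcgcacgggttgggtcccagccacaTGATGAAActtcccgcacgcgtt
Chac1 promoter, chr2:119350992-119351241, plus strand: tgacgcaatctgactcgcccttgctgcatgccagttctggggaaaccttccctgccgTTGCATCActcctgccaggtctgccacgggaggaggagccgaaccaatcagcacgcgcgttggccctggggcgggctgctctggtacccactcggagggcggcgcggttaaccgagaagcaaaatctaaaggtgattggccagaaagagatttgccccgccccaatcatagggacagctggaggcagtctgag
Hmgcs1 promoter, chr13:119690101-119690350, plus strand: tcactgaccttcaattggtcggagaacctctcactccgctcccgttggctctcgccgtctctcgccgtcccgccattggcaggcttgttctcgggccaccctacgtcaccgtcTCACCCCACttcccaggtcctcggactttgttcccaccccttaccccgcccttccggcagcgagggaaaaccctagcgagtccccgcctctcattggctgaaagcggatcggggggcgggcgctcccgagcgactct
Bnip3 promoter, chr7:138909507-138909756, minus strand: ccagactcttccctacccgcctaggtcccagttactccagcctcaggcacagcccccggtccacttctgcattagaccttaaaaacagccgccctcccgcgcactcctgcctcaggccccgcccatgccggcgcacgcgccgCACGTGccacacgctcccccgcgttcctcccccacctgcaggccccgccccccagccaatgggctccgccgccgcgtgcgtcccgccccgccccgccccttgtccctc
Ero1a promoter, chr14:45318573-45318822, minus strand: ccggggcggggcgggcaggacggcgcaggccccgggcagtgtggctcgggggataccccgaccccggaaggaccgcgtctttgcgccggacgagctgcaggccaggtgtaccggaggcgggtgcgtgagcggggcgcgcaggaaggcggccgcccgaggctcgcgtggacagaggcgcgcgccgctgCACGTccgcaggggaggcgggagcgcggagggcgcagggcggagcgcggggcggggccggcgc
Pgk1 promoter, chrX:106186850-106187099, plus strand: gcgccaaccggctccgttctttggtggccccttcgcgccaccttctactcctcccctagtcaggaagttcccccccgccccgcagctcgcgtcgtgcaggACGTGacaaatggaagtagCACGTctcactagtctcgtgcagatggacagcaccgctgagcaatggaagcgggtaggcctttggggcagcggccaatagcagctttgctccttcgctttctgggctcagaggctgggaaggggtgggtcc

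Of the DNA replication and mitosis genes with a promoter window, 21 of 51 (41.2%) held the cell cycle homology region, against 17.9% of all 32851 promoters and 14.7% of those of tested genes. A CCAAT box stood in 76.5% of them, against 37.4% and 44.0%. The E2F site stood in 7 of 51 (13.7%), against 0.514% of all promoters and 1.1% of those of tested genes. In ribosome biogenesis genes it stood in 1 of 55 windows (1.82%). The ATF4 element was found in 9 of the 28 windows of ATF4 targets (32.1%), against 3.97% of all promoters and 2.8% of those of tested genes. The letters TGACGTCA, searched too, stood in 1 of these 28 windows (3.57%), against 3.68% of the promoters of tested genes. The hypoxia core was found in 22 of 30 windows of hypoxia genes (73.3%), against 19.6% of all promoters and 29.2% of those of tested genes. The sterol element stood only in the window of *Hmgcs1* among 22 windows of cholesterol genes. Its share was 1.24% of all promoters and 1.39% of those of tested genes. A CCAAT box stood in 86.4% of the windows of cholesterol genes. A match is a description of letters in the window and not a site shown to be used, and the motifs were chosen with the results of the lists known.

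**Figure D1:**
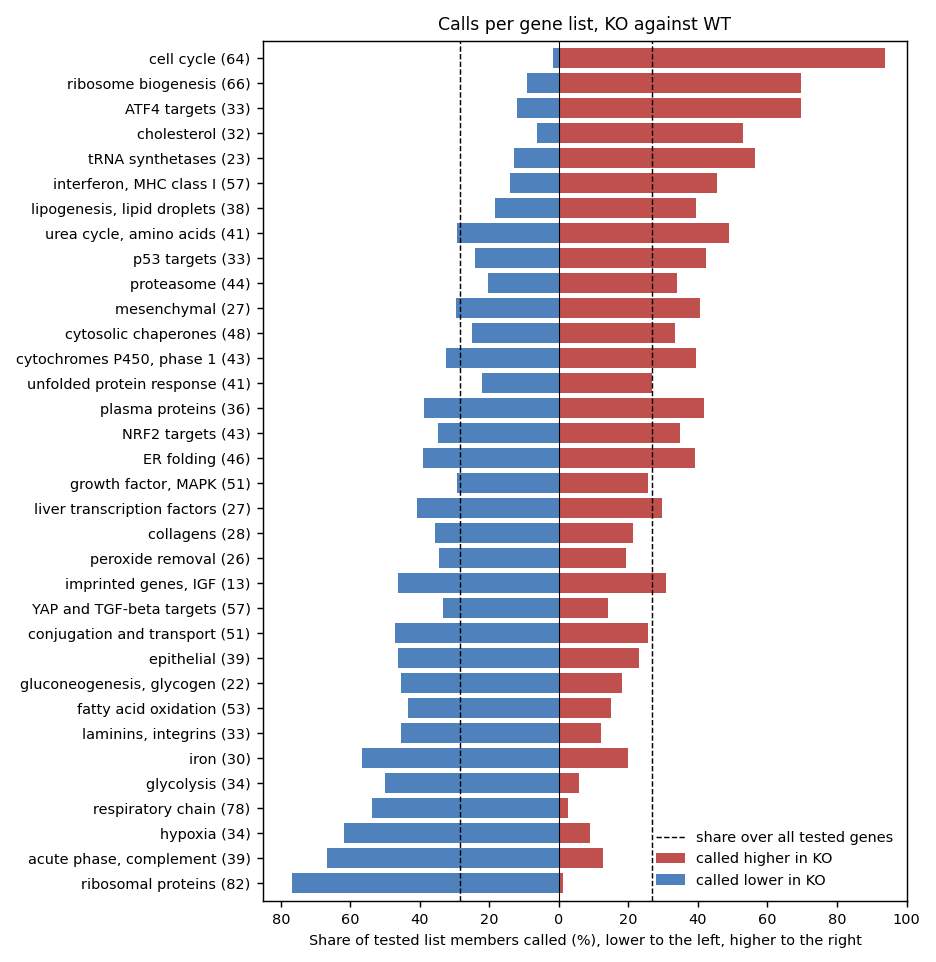
Share of the tested members of 34 gene lists that were called higher (red, to the right) or lower (blue, to the left) in the KO cells, in percent; the number tested stands in brackets and the dashed lines mark the shares over all tested genes (26.7% and 28.4%). Cell cycle genes stand at the top with 93.8% higher, and ribosomal proteins at the bottom with 76.8% lower.

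Genes of DNA replication and mitosis were higher in the KO cells almost throughout. Of 64 listed genes, all tested, 60 rose and 1 fell, and the median log2 fold change was 1.49 against -0.03 for all tested genes. The rise exceeded a log2 fold change of 1 in 50 of them. The summed level of the list was 4287, 4663, 4127 and 4330 CPM in KO cells and 1886, 1741 and 1448 in WT cells. The lowest KO library thus lay 2241 CPM above the highest WT library. With library totals 62 genes rose and none was called lower, with a median of 1.92, and without WT 8 59 rose with a median of 1.38.

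The members rose at each step of the cycle. *Ccne1*, the cyclin that drives entry into S phase, had 15.2, 17.5, 13.9 and 13.8 CPM in KO cells and 2.16, 1.53 and 1.62 in WT cells (log2 fold change 3.09, SE 0.20, edgeR adjusted p = 8.74e-07). The transcription factor *E2f2* had 12.4, 12.7, 13.4 and 12.9 CPM against 0.26, 1.85 and 0.691 (log2 fold change 3.77, SE 0.42, edgeR adjusted p = 3.37e-05). For both genes the groups were wide apart, with the lowest KO library at 6.39 and 6.7 times the highest WT library. *Cdc6*, a loader of the replicative helicase, rose by 3.01, and so did all 6 helicase subunits *Mcm2* to *Mcm7*, by 0.87 to 2.48. *Mcm2* had 89.2, 105, 89.7 and 99.8 CPM against 22.5, 24.0 and 26.7 (log2 fold change 1.98, SE 0.13, edgeR adjusted p = 8.58e-07). The 4 polymerase and primase genes rose by 1.11 to 2.06, and the 5 enzymes that supply nucleotides, among them ribonucleotide reductase and thymidylate synthase, by 0.65 to 1.53.

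For mitosis, the proliferation marker *Mki67* had 280, 379, 323 and 382 CPM in KO cells and 51.9, 55.2 and 58.6 in WT cells (log2 fold change 2.63, SE 0.15, edgeR adjusted p = 3.8e-07). The lowest KO library was at 4.78 times the highest WT library. *Cdc20*, an activator of the anaphase-promoting complex, had 58.3, 74.9, 55.8 and 72 CPM against 16, 12.7 and 11.9 (log2 fold change 2.27). *Foxm1*, a factor that turns on mitotic genes, rose by 2.47. All 7 mitotic kinases and checkpoint genes rose by 0.58 to 2.59, with *Plk1* highest, and all 6 kinesin and centromere genes by 1.43 to 2.38. Of the 21 genes whose window held the cell cycle homology region 20 rose, and of the 7 with the E2F site 6 rose. In the whole list 60 of 64 rose. *E2f1* was the member that fell, with 25, 25.7, 22.5 and 27.5 CPM against 34.4, 35.4 and 29.5 (log2 fold change -0.39, SE 0.13, edgeR adjusted p = 0.0241); scaled to library totals it stood at 0.03 and was not called, and the call was also lost without KO 5, KO 6, KO 7, WT 5-6 or WT 7. *Ccnb2*, *Cdc25a* and *Orc6* were not called. Of p53 and its target genes 14 rose and 8 fell of 33 tested among 35 listed. *Cdkn1a*, the cell cycle inhibitor p21, had 176, 175, 161 and 174 CPM in KO cells and 127, 126 and 149 in WT cells (log2 fold change 0.35, SE 0.12, edgeR adjusted p = 0.0237), and without KO 5, KO 6, KO 8 or WT 7 it was not called (edgeR adjusted p from 0.0565 to 0.0766).

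The list of MYC and nucleolar ribosome biogenesis genes, which also holds some metabolic enzymes, mostly rose as well. Of 66 tested, 46 rose and 6 fell, with a median log2 fold change of 0.68, and with library totals 53 rose and 1 fell, with a median of 1.10. *Srm*, the spermidine synthase and a well-known MYC target, had 37.5, 39.8, 29.1 and 40 CPM in KO cells and 7.96, 5.64 and 6.32 in WT cells (log2 fold change 2.46, SE 0.18, edgeR adjusted p = 1.9e-06). The processing factors *Rrp12* and *Utp20* rose by 2.45 and 2.41. *Rrp12* had 37.7, 53.5, 32.7 and 47.1 CPM against 6.84, 6.49 and 10.1, and the groups did not overlap. *Polr1a* and *Polr1b*, the largest subunits of RNA polymerase I, rose by 1.56 and 1.96, while *Polr1d*, a subunit that polymerase III also uses, fell by 0.71 on the log2 scale. *Myc* itself had 49.7, 58.9, 50.5 and 62.5 CPM in KO cells and 54.3, 60.9 and 60.2 in WT cells, and the groups overlapped (log2 fold change -0.08, edgeR adjusted p = 0.625). Summed over the list, the KO libraries (4868 to 5323 CPM) and the WT libraries (4096 to 5564 CPM) overlapped too. *Npm1*, a nucleolar histone chaperone and one of the members that fell, had 518 to 679 CPM in the KO and 1090 to 2030 in the WT libraries.

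Ribosomal protein genes, the product side of the same organelle, went the other way. Of 82 tested, 63 fell and 1 rose, with a median log2 fold change of -0.89. Their summed level was 62310, 53250, 52390 and 46610 CPM in KO cells and 124600, 105000 and 73220 in WT cells. The groups did not overlap, but WT 8 lay closer to KO 5 than to WT 5-6. With library totals 43 fell and 6 rose, with a median of -0.44, and without WT 8 66 fell with a median of -1.05. Large subunit (38 of 49 lower) and small subunit (25 of 33 lower) had like medians of -0.90 and -0.89. *Rpl17* had 73, 63, 63 and 49.1 CPM in KO cells and 380, 471 and 426 in WT cells (log2 fold change -2.78, SE 0.15, edgeR adjusted p = 2.96e-07). The lowest WT library was thus at 5.21 times the highest KO library. *Rpl18* was the gene that rose, with 996, 940, 889 and 914 CPM against 662, 641 and 604 (log2 fold change 0.56). Ribosomal protein genes have many processed pseudogenes, so single values are uncertain, since reads may have been divided between copies.

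Subunits of the respiratory chain, encoded in the nucleus, showed a smaller shift in the same direction. Of 78 tested, 42 fell and 2 rose, with a median log2 fold change of -0.50. The fall reached 9 of 11 genes of cytochrome c oxidase (complex IV, median -0.89), 5 of 9 of complex III (-0.69), 18 of 38 of complex I (-0.44), 8 of 15 of the ATP synthase (-0.42) and 2 of 4 of complex II (-0.28). *Ndufa6*, a small subunit of complex I, had 145, 117, 126 and 90.4 CPM in KO cells and 529, 521 and 295 in WT cells (log2 fold change -1.91, SE 0.22, edgeR adjusted p = 3.81e-05). *Ndufs4* fell by 1.81 on the log2 scale. *Ndufab1*, an acyl carrier protein that is also a subunit of complex I, rose by 0.78. This direction depends on the scaling: with library totals 29 genes fell and 17 rose, with a median of -0.07, which is still below the 0.38 of all genes. Without WT 8 53 fell and 6 rose, with a median of -0.64, and without WT 5-6 34 fell and 4 rose, with a median of -0.33.

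Transcript length moved with both lists. Length here is that of the longest annotated transcript of each gene, which need not be the one expressed. Over 11974 tested genes with a length, cut into 10 bins, the median log2 fold change went from -0.36 in the shortest bin (median 1088 nucleotides) to 0.13 in the longest (median 8219). WT 8 against the other WT libraries showed the same trend without any difference in genotype, from -0.32 to 0.33. By their longest annotated transcript, ribosomal proteins (median 1076 nucleotides) and respiratory subunits (median 1135) are among the shortest genes. Centred on the bin medians, their median log2 fold changes were -0.67 and -0.28, while that of the cell cycle list remained at 1.44. The part of length in these results was not tested further.

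**Figure D2:**
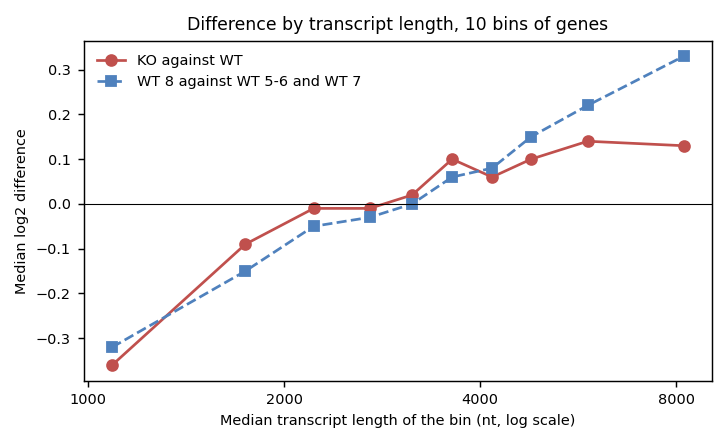
Median log2 difference (vertical axis) of genes in 10 bins of transcript length (horizontal axis, nucleotides, log scale, longest annotated transcript of each gene). Red circles show KO against WT, and blue squares (dashed) WT 8 against the other WT libraries. Both rise from the shortest bin (-0.36 and -0.32) to the longest (0.13 and 0.33).

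ATF4 drives genes that make, import and charge amino acids, and these were higher in the KO cells. Of 36 ATF4 targets 33 were tested, and of these 23 rose and 4 fell, with a median log2 fold change of 1.11. With library totals 26 rose and 2 fell, and leaving out any single library left 22 or 23. When each gene was centred on the median of its chromosome, which ran from -0.36 to 0.52, the median of the list was 0.63. Summed, the list held 3448, 3443, 3333 and 3440 CPM in KO cells and 2614, 2395 and 2414 in WT cells, without overlap.

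*Atf5*, a transcription factor of the same stress pathway, showed the largest rise, with 297, 329, 261 and 309 CPM in KO cells and 29.6, 24.8 and 28.7 in WT cells (log2 fold change 3.43, SE 0.14, edgeR adjusted p = 6.18e-08). Its chromosome, 7, had a median of 0.52 over all its tested genes. *Asns*, the asparagine synthetase, had 142, 147, 138 and 152 CPM against 39.5, 39.3 and 36 (log2 fold change 1.92, SE 0.12, edgeR adjusted p = 4.95e-07). The groups did not overlap for either gene, with the nearest libraries 8.82-fold and 3.49-fold apart. *Slc7a5*, the carrier for large neutral amino acids, had 62.8, 87.6, 73.9 and 90.1 CPM against 15.4, 14 and 14.9 (log2 fold change 2.41, SE 0.16, edgeR adjusted p = 9.03e-07). Of the 8 amino acid carriers tested 6 rose, and of the 6 enzymes of serine and folate metabolism 5 rose, among them *Mthfd2* (1.95) and *Shmt2* (1.77), the mitochondrial enzymes that take carbon from serine. *Cth*, which makes cysteine from cystathionine, had 73.4, 66.9, 57.2 and 63 CPM against 13.3, 14.7 and 8.5 (log2 fold change 2.42).

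Other members of the list did not follow. *Stc2*, a secreted glycoprotein, had at most 0.19 CPM in KO cells and 8.13, 13.2 and 9.74 in WT cells (log2 fold change -7.07, SE 0.58, edgeR adjusted p = 3.7e-06). *Vldlr*, a lipoprotein receptor, fell by 1.45 on the log2 scale, with 71.1 to 96 CPM in the KO and 217 to 245 in the WT libraries. *Atf4* mRNA had 267, 272, 228 and 259 CPM against 231, 203 and 179, a difference that was not called (log2 fold change 0.32, edgeR adjusted p = 0.0547), and the serine synthesis enzyme *Psat1* overlapped between the groups. Of the 9 genes with the ATF4 element in their window 5 rose and 2 fell, against 23 and 4 of the 33 tested in the whole list. Among 23 cytosolic aminoacyl-tRNA synthetases and their partners, which charge tRNAs with amino acids, 13 rose and 3 fell. *Cars* (cysteine) and *Aars* (alanine) rose by 1.42 and 1.28. *Dars* (aspartate) fell by 1.48 on the log2 scale, with 169 to 251 CPM in the KO and 393 to 706 in the WT libraries.

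Cholesterol synthesis and uptake genes were higher in the KO cells. Of 32 tested, 17 rose and 2 fell, with a median log2 fold change of 0.46, and the 13 others were not called. Their summed level was 3598, 3813, 3511 and 3762 CPM in KO cells and 2657, 2640 and 2698 in WT cells. With library totals 27 rose and none was called lower, and without WT 8 21 rose and 2 fell. *Hmgcs1*, the synthase that opens the pathway, had 267, 293, 265 and 287 CPM against 94.9, 113 and 134 (log2 fold change 1.29, SE 0.14, edgeR adjusted p = 2.92e-05). The nearest libraries of the groups were 1.98-fold apart. The squalene epoxidase *Sqle* rose by 0.87, the cholesterol exporter *Abca1* by 1.77 and the sterol acyltransferase *Soat2* by 1.97. The regulator *Srebf2* (0.15) and its retention protein *Insig1* (0.32) were not called. *Abcg5* and *Abcg8*, listed among the transporters and known to pump sterols into bile together, had 192 to 229 and 34 to 86 counts in KO cells and at most 2 and 0 counts in WT cells, so that *Abcg8* was at least 12.1-fold higher against a floor of 3 counts per library.

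In fat synthesis and storage, 38 of 43 listed genes were tested, of which 15 rose and 7 fell, with a median of 0.25 (23 and 3 with library totals). *Scd1*, the stearoyl-CoA desaturase, had 563, 667, 648 and 663 CPM in KO cells and 260, 306 and 349 in WT cells (log2 fold change 1.06, SE 0.15, edgeR adjusted p = 0.000131). *Acss2*, which makes acetyl-CoA from acetate, rose by 1.64, the lipid droplet protein *Plin4* by 2.17 and the lipase *Pnpla3* by 2.57. *Plin2*, the main droplet coat protein of hepatocytes, had 306, 261, 256 and 230 CPM against 919, 691 and 578 (log2 fold change -1.47, SE 0.17, edgeR adjusted p = 4.61e-05). Droplet coat genes therefore moved in both directions, each without overlap of the groups.

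Genes of fatty acid uptake and oxidation tended to be lower in the KO cells. Of 57 listed 53 were tested, of which 23 fell and 8 rose, with a median log2 fold change of -0.33, and with library totals 15 fell and 18 rose, with a median of 0.08. *Cd36*, the fatty acid translocase, had 6.18, 3.85, 5.3 and 4.82 CPM in KO cells and 126, 141 and 70.3 in WT cells (log2 fold change -4.48, SE 0.25, edgeR adjusted p = 3.01e-07). It was lower in every KO library than in any WT library. *Ppara*, the nuclear receptor for this programme, fell from 23.4, 33.4 and 40.1 CPM in the WT libraries to 8.16, 9.32, 9.15 and 10.1 in the KO libraries (log2 fold change -1.81). *Angptl4* (-2.02), *Fabp4* (-2.46) and *Acot1* (-1.92) of this list fell too, and a link of these genes to *Ppara* was not tested. Of 8 acyl-CoA dehydrogenase genes 5 fell and 1 rose. *Cpt1a*, the gate of mitochondrial entry, was not called (log2 fold change 0.49, edgeR adjusted p = 0.0685), and its KO libraries (122 to 149 CPM) overlapped with WT 8 (140 CPM).

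**Figure D3:**
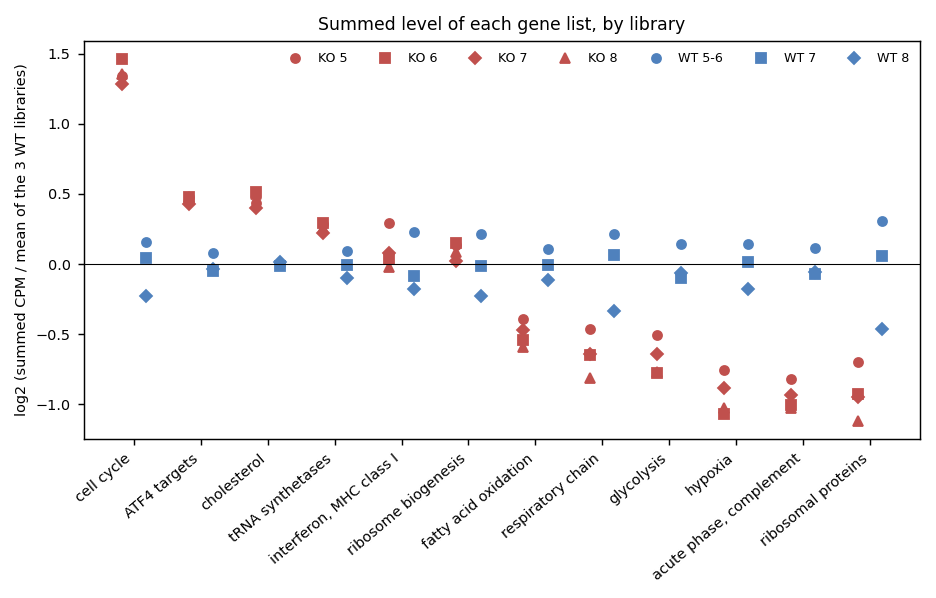
Summed level of 12 gene lists in each of the 4 KO (red) and 3 WT (blue) libraries, as the log2 of summed CPM over the mean of the WT libraries. Cell cycle sums lie above all WT libraries and ribosomal protein sums below them, while those of ribosome biogenesis and of interferon and MHC class I overlap.

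Genes known for the response to low oxygen were mostly lower in the KO cells. Only their mRNA was compared, and the response itself was not tested. Of 35 hypoxia genes 34 were tested, of which 21 fell and 3 rose, with a median log2 fold change of -0.72. Their summed level was 9438, 7598, 8639 and 7834 CPM in KO cells and 17600, 16060 and 14090 in WT cells, so that the highest KO library lay well under the lowest WT library. With library totals 16 fell and 5 rose, with a median of -0.32, and without WT 8 19 fell and 4 rose. *Bnip3*, a mitophagy receptor, had 474, 340, 447 and 305 CPM against 2160, 2220 and 1190 (log2 fold change -2.25, SE 0.24, edgeR adjusted p = 2.31e-05). *Ero1a*, the hypoxia-inducible oxidase that reoxidises disulfide isomerases in the ER, had 112, 88, 107 and 95 CPM against 521, 519 and 528 (log2 fold change -2.38, SE 0.13, edgeR adjusted p = 2.39e-07). For *Ero1a* the WT libraries were close to each other, and the lowest of them was at 4.63 times the highest KO library.

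Among 7 genes of HIF subunits and their regulators 5 fell and 2 rose. *Hif1a* had 81.2, 84.3, 82.3 and 81.5 CPM in KO cells and 106, 127 and 129 in WT cells (log2 fold change -0.55, SE 0.11, edgeR adjusted p = 0.00187), which with library totals was -0.15 and not called. The prolyl hydroxylase *Egln3*, a HIF target and a HIF inhibitor, fell by 1.21 on the log2 scale, and *Egln2*, which is not induced by hypoxia, rose by 0.80. *Vegfa*, the classical angiogenic target, was not called, with 56.6 to 61.5 CPM in the KO and 48.5 to 60 in the WT libraries. Of the 22 genes with the hypoxia core in their window 15 fell, 2 rose and 5 were not called. In the whole list 21 fell and 3 rose of 34 tested.

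Glycolysis shares many of these genes. Of 39 listed 34 were tested, of which 17 fell and 2 rose, with a median log2 fold change of -0.46 (12 fell and 4 rose with library totals). Among the 21 genes of the glycolytic steps 12 fell, among them the phosphofructokinases *Pfkl* (-1.20) and *Pfkp* (-1.24), the triose phosphate isomerase *Tpi1* (-1.17) and the enolase *Eno2* (-2.60). *Pgk1*, the phosphoglycerate kinase, had 1390, 1150, 1310 and 1120 CPM in KO cells and 5270, 4300 and 3340 in WT cells (log2 fold change -1.80, SE 0.18, edgeR adjusted p = 1.82e-05). *Slc16a3*, the lactate exporter, had 2.03, 1.06, 2.14 and 2.34 CPM against 53, 44.1 and 56.5 (log2 fold change -4.74). In both, every KO library lay below every WT library. *Gapdh* and *Pgk1* have processed pseudogenes, so their counts are uncertain. Of 27 genes of gluconeogenesis and glycogen 22 were tested, of which 10 fell and 4 rose, with the branching enzyme *Gbe1* at -1.36 and the pyruvate carboxylase *Pcx* at -1.12 (7 fell and 8 rose with library totals). *Pck1*, the key enzyme of gluconeogenesis, had 0 counts in all 7 libraries.

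**Figure D4:**
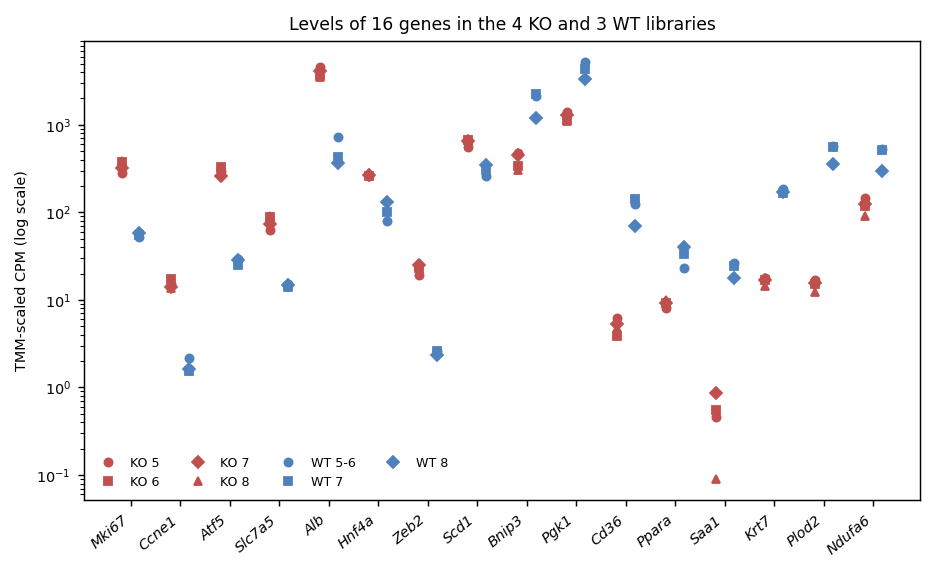
Level of 16 genes in the 4 KO (red) and 3 WT (blue) libraries, as TMM-scaled CPM on a log scale, each point a library. Cell cycle, ATF4, albumin, *Hnf4a*, *Zeb2* and *Scd1* points lie higher in the KO libraries, and the hypoxia, fatty acid, acute-phase, *Krt7*, *Plod2* and *Ndufa6* points lie lower, with no overlap.

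Acute-phase and complement genes, listed together with chemokines, cytokine receptors and signalling factors, were mostly lower in the KO cells. Of 48 listed 39 were tested, of which 26 fell and 5 rose, with a median log2 fold change of -0.91 (4 of 5 tested macrophage markers fell too, and their part in it was not tested), and with library totals 19 fell and 9 rose, with a median of -0.52. Summed, the list held 9358, 8247, 8655 and 8130 CPM in KO cells and 17920, 15730 and 15890 in WT cells, without overlap. *Saa1*, serum amyloid A, had 0.461, 0.547, 0.869 and 0.0892 CPM against 26.4, 24.1 and 17.6 (log2 fold change -5.57, SE 0.42, edgeR adjusted p = 2.19e-06). Haptoglobin (*Hp*) had 393, 275, 330 and 273 CPM against 962, 717 and 669 (log2 fold change -1.30). All 4 chemokines fell, by 0.41 to 1.59 on the log2 scale, with *Ccl2* lowest at 275 to 375 CPM in the KO and 650 to 1150 in the WT libraries. The receptor for interleukin 1, *Il1r1*, fell by 4.11 on the log2 scale. Of the complement genes 7 fell, among them *C3* (-0.91), and 4 rose. The 5 genes of the list that rose were *Il6ra* (1.16), *C1s1* (1.09), *C4bp* (0.82), *C1ra* (0.68) and *Hc*, which had 18 to 41 counts in KO cells and 0 in WT cells.

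The list of hepatocyte plasma proteins and apolipoproteins split in both directions. Of 54 listed 36 were tested, of which 15 rose and 14 fell, with a median log2 fold change of 0.34 (18 and 10 with library totals). That median was 0.14 without KO 5, 0.17 without KO 7, 0.18 without WT 8, 0.08 when centred on chromosome medians and 0.02 with at least 10 counts in every library. *Alb*, albumin, had 4610, 3700, 4140 and 3480 CPM in KO cells and 717, 425 and 364 in WT cells (log2 fold change 2.99, SE 0.26, edgeR adjusted p = 5.68e-06). *Apoa1*, the main protein of HDL, had 27.2, 16.2, 26.2 and 19.7 CPM against 1.51, 1.25 and 1.93 (log2 fold change 3.82, SE 0.26, edgeR adjusted p = 1.11e-06). The lowest KO library was at 4.85 times the highest WT library for albumin and at 8.39 times for *Apoa1*. Of 8 apolipoprotein genes 5 rose and 2 fell, the latter *Apoe* (-1.34) and *Apoc2* (-1.63). Transthyretin (*Ttr*) had 515, 385, 416 and 380 CPM against 1010, 612 and 804 (log2 fold change -0.93), and ceruloplasmin (*Cp*), which carries copper, had 731, 634, 700 and 606 against 2920, 2220 and 2190 (log2 fold change -1.87). Among 8 coagulation proteins and their inhibitors 6 fell and 1 rose, with protein C (*Proc*) at -3.01.

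The transcription factors that keep hepatocyte identity split too, with 8 higher and 11 lower of 27 tested among 30 listed (10 and 7 with library totals). *Hnf4a* had 257, 259, 267 and 283 CPM in KO cells and 79.6, 102 and 132 in WT cells (log2 fold change 1.35, SE 0.17, edgeR adjusted p = 6.3e-05). *Cebpa* had 140, 120, 140 and 114 CPM against 45.5, 40.7 and 32.3 (log2 fold change 1.70, SE 0.15, edgeR adjusted p = 7.44e-06), on chromosome 7. *Foxa1* rose by 2.35. *Onecut1* (-3.10), *Nr5a2* (-2.64) and *Foxa3* (-2.0) fell. In bulk RNA, fewer cells of a kind and less RNA per cell cannot be told apart. The labelled cell type had its markers only in part: *Alb*, *Apob*, *Hnf4a* and *Ttr* were present, while *Cyp2e1*, *Arg1*, *Cyp7a1* and *Pck1* had 0 counts in all 7 libraries.

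Drug-metabolising genes showed large changes in single members. Among the cytochromes P450 and other oxidising enzymes 17 rose and 14 fell of 43 tested among 61 listed (20 and 8 with library totals). *Aldh3a1*, an aldehyde dehydrogenase induced through the aryl hydrocarbon receptor, had 43.8, 36.9, 42.4 and 46.6 CPM in KO cells and 0, 0.524 and 0.345 in WT cells (log2 fold change 7.14, SE 0.41). *Cyp4a12a*, a fatty acid hydroxylase, had at most 0.244 CPM in KO cells and 29.6, 28.3 and 19 in WT cells (log2 fold change -7.86, SE 0.52, edgeR adjusted p = 9.34e-07). Of conjugating enzymes and transporters 24 fell and 13 rose of 51 tested among 65 listed, but with library totals 16 fell and 18 rose. *Abcb1b*, a P-glycoprotein drug pump, had 16, 20, 13.8 and 15.5 CPM against 0.173, 0.968 and 0.276 (log2 fold change 5.10, SE 0.41, edgeR adjusted p = 3.19e-06). The groups of all 3 genes were far apart. Members of the cytochrome P450 and transporter families resemble each other, so counts of single members are uncertain.

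In the urea cycle and amino acid breakdown 20 genes rose and 12 fell of 41 tested among 55 listed, with a median log2 fold change of 0.34 (25 and 4 with library totals). *Prodh*, the first enzyme of proline breakdown, had 72.2, 60.5, 58.3 and 56.5 CPM in KO cells and 6.06, 6.17 and 8.91 in WT cells (log2 fold change 3.13). *Ass1*, which forms argininosuccinate in the urea cycle, rose by 1.5, with 87.4 to 118 CPM in the KO and 27.1 to 53 in the WT libraries. *Gnmt*, which consumes S-adenosylmethionine, rose by 2.61, and *Mat1a*, the liver enzyme that makes it, fell by 3.84 on the log2 scale. *Gls2*, the liver glutaminase, fell by 2.02 on the log2 scale.

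In the compartment of TXNDC5 genes moved in both directions. Of 48 ER chaperones and disulfide isomerases, *Txndc5* included, 46 were tested, of which 18 rose and 18 fell, with a median of 0.06, but with library totals 25 rose and 7 fell. Without KO 6, KO 7, KO 8, WT 5-6 or WT 7 the lower calls numbered 10 or 11, against 15 or 16 higher ones. *Hspa5*, the chaperone BiP, had 2960, 2600, 2560 and 2320 CPM in KO cells and 1960, 1790 and 1370 in WT cells (log2 fold change 0.61, SE 0.17, edgeR adjusted p = 0.011). *Hyou1*, *Creld2* and *Sdf2l1*, which are known to be induced by ER stress, rose by 1.23, 1.26 and 1.21. *Hyou1* had 168, 192, 177 and 203 CPM against 65.1, 76.4 and 94.2, without overlap. Among the disulfide isomerases *Pdia3* (0.91), *Pdia4* (0.97) and *Pdia5* (1.02) rose, while *P4hb* (-0.64), *Tmx1* (-1.23), *Tmx3* (-1.21) and *Txndc16* (-1.52) fell. The lectin chaperone *Calr* rose by 1.06, and *Canx* and *Hsp90b1* were not called. Of 43 genes of the unfolded protein response and ER degradation 41 were tested, of which 11 rose, 9 fell and 21 were not called (23 and 4 with library totals, and 17 and 9 without WT 8). The sensors *Atf6* (0.21), *Ern1* (0.22) and *Eif2ak3* (0.35) were not called. *Xbp1*, the factor spliced by IRE1, had 226, 192, 213 and 175 CPM against 353, 326 and 267 (log2 fold change -0.65, SE 0.14, edgeR adjusted p = 0.00266), and the counts do not separate its spliced form.

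Antioxidant genes did not move as a block. Of 46 NRF2 targets 43 were tested, of which 15 rose and 15 fell, with a median log2 fold change of 0.09 (23 and 7 with library totals). *Hmox1*, heme oxygenase, had 12.1, 13.3, 13.2 and 13.2 CPM in KO cells and 74.5, 80.2 and 112 in WT cells (log2 fold change -2.78, SE 0.16, edgeR adjusted p = 3.14e-07). *Nqo1*, a quinone reductase, had 42, 23, 41 and 24 counts in KO cells and 0 in every WT library, at least 7.46-fold higher against the floor. The glutathione synthesis genes *Gss* (1.5) and *Gclm* (0.82) and the thioredoxin reductase *Txnrd1* (0.56) rose. For the removal of peroxide and superoxide 5 genes rose and 9 fell of 26 tested among 29 listed, but with library totals 11 rose and 4 fell, and without WT 8 10 rose and 10 fell. *Gpx3*, the secreted glutathione peroxidase, had 0.271, 0.748, 0.753 and 1.4 CPM against 91.3, 77.7 and 94.1 (log2 fold change -6.75, SE 0.34, edgeR adjusted p = 1.44e-07), and the groups were far apart. Iron genes were mostly lower, with 17 lower and 6 higher of 30 tested among 34 listed (8 and 8 with library totals), among them the ferritin chain *Fth1* (-0.72), with 2950 to 3250 CPM in the KO and 4420 to 5390 in the WT libraries, and the transferrin receptor *Tfr2* of hepatocytes (-1.97).

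Genes of the interferon response and of MHC class I presentation were higher more often than lower, although their summed level overlapped between the groups. Of 60 listed 57 were tested, of which 26 rose and 8 fell, with a median log2 fold change of 0.41 (37 and 4 with library totals), which was 0.26 without KO 5. *Ifitm3*, a membrane protein that blocks viral entry, had 108, 80.6, 79.9 and 71.7 CPM in KO cells and 8.65, 5.56 and 6.84 in WT cells (log2 fold change 3.60, SE 0.21). No WT library reached the level of a KO library. The peptide transporter genes *Tap1* (0.90) and *Tap2* (1.17) and the immunoproteasome subunit *Psmb8* (1.66) rose, whereas *B2m*, *H2-K1* and *H2-D1*, the MHC class I molecule itself, were not called. *Ifit3*, at 3.83 CPM or less in every library, was among the 8 that fell (log2 fold change -1.95).

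The cell surface and matrix also differed. Of 56 epithelial genes 39 were tested, of which 18 fell and 9 rose, but with library totals 10 fell and 17 rose, and without WT 8 17 fell and 15 rose. *Krt7*, a keratin of bile duct cells, had 17.6, 16.9, 16.7 and 14.6 CPM in KO cells and 183, 166 and 173 in WT cells (log2 fold change -3.40, SE 0.12, edgeR adjusted p = 2.32e-08). Osteopontin (*Spp1*) had 273, 246, 228 and 205 CPM against 3190, 2330 and 1900 (log2 fold change -3.38). Both were lower in every KO library than in any WT library, while *Krt19*, another keratin of bile ducts, rose by 0.49. Among laminins, integrins and other basement membrane genes 15 fell and 4 rose of 33 tested among 44 listed (8 and 8 with library totals, and 13 and 7 without WT 8), with *Lamb3* at -3.35 and the collagen receptor *Itga2* at -2.31. *Plod2*, the lysyl hydroxylase that sets collagen cross-links and is known to respond to hypoxia, had 16.8, 15.2, 15.5 and 12.2 CPM against 571, 554 and 358 (log2 fold change -5.05, SE 0.20, edgeR adjusted p = 4.09e-08). Of 45 mesenchymal genes 27 were tested, of which 11 rose and 8 fell, with *Zeb2* at 3.18, *Vim* at 0.65 and *Fn1* at -1.69. The imprinted growth regulator *Peg3* had 38.5, 44.9, 46.2 and 49.3 CPM against 607, 794 and 941 (log2 fold change -4.13, SE 0.18, edgeR adjusted p = 6.18e-08).

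The remaining lists are given by their counts. Of 44 proteasome genes 15 rose and 9 fell, of 48 heat shock chaperones and chaperonins 16 rose and 12 fell (25 and 2, and 29 and 6, with library totals), and of 51 tested growth factor and MAPK genes 13 rose and 15 fell. Among Hippo, YAP and TGF beta pathway genes 8 rose and 19 fell of 57 tested, and among collagens and their enzymes 6 rose and 10 fell of 28 tested among 54 listed. Imprinted and IGF genes (4 higher and 6 lower of 13 tested among 32 listed), caveolae genes (4 and 1 of 8) and bile acid genes (2 and 1 of 9) were few. Lower calls of the proteasome list ran from 4 without WT 7 to 16 without WT 8, and without WT 8 the Hippo, YAP and TGF beta list had 17 higher and 19 lower calls. With library totals higher calls outnumbered lower ones in the YAP and TGF beta list (24 and 13) and in the growth factor list (22 and 9).

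Markers of other cell types were present to unequal degrees. Of 16 macrophage markers 8 were at 0 counts in all libraries, *Adgre1*, *Clec4f* and *Timd4* among them, and the list's sum of 366 to 451 CPM in the KO and 472 to 651 in the WT libraries came almost wholly from *Cd14* (363 to 448 and 460 to 643). Of the 5 macrophage markers tested 4 fell, with a median log2 fold change of -1.53, and apart from *Cd14* they had at most 7.11 CPM in any library. Endothelial markers summed to 13.15 to 15.03 CPM in the KO and 50.02 to 66.86 in the WT libraries, of which *Flt1* made 31.9 to 44.3 in the WT and at most 0.0575 in the KO libraries, while *Tek*, *Tie1* and *Erg* had 0 counts. Of the 4 endothelial markers tested 2 fell. Stellate cell and fibroblast markers summed to at most 1.85 CPM and lymphocyte markers to at most 0.766. Of 11 tested bile duct markers 7 fell and 3 rose, with sums of 2890 to 3200 CPM in the KO and 4810 to 6760 in the WT libraries, and of 14 tested hepatocyte markers 7 rose and 7 fell, with sums of 6260 to 7310 and 3910 to 5960. The part of these markers in the other lists was not tested.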

How the data were processed

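RNA was isolated from cultured AML12 cells, polyadenylated RNA was captured on oligo(dT) beads and libraries were made with random hexamers. The authors deposited raw read counts per gene entry for 11 libraries, beside FPKM and the results of their own comparisons (fold changes and p-values), neither of which was used here. The submitters' notes name HISAT2, TopHat2, Bowtie2 and StringTie. The genome build and the strand setting are not given in the sources used here, so overlapping and antisense genes are uncertain. Of 26472 lines 26462 were used, and 10 with a broken annotation were left out.

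Counts were summed by gene name, filtered with filterByExpr and fitted for the 7 KO and WT libraries with edgeR 4.0.16 in R 4.3.3. The fit used TMM, the quasi-likelihood test, Benjamini-Hochberg adjustment and a threshold of 0.05, with no covariate. It was tested on simulated data with a small set of changed genes, as many higher as lower. That simulation does not test the scaling where most genes change. DESeq2 1.42.0 and limma 3.58.1 (voom) were alternatives, with other scalings, filters, a replicate block, all 11 libraries and each library left out in turn. Same-numbered libraries were not taken as pairs.

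Members and lists were chosen with earlier results of these data known. Named genes are the first 3 members of each list and the 3 called members with the largest rise and fall at a mean of at least 4 CPM, and the 15 leading genes each way; some of these are not reported here. Outside this rule, these were named after their values were seen: Abcg5, Abcg8, Acot1, Angptl4, Apob, Apoe, Atf4, C1ra, Calr, Canx, Ccl2, Ccnb2, Cdc20, Cdc25a, Clec4f, Eif2ak3, Erg, Foxa1, Foxm1, Gclm, H2-D1, H2-K1, Hc, Hmgcs1, Hsp90b1, Ifit3, Insig1, Mat1a, Mcm5, Mcm7, Mthfd2, Onecut1, Orc6, P4hb, Pcx, Pdia3, Pdia5, Pfkl, Pfkp, Plk1, Polr1a, Polr1b, Psat1, Shmt2, Srebf2, Tap1, Tap2, Tek, Tie1, Timd4, Tmx1, Tmx3, Tpi1 and Txnrd1.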

Additional observations from a re-analysis of the deposited data

Results flagged for a closer look

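Among 197 groups of 4 KO libraries tested with Dixon's criterion, 7 (3.55%) held a library far from the other 3, where chance gives about 1 in 20. KO 7 was that library for the summed ATF4 target list (3330 CPM), *Cdkn1a* (161 CPM), *Insig1* (105 CPM), *Ndufab1* (75.6 CPM) and *Soat2* (10.5 CPM). KO 5 was that library for *Hmox1* (12.1 CPM), and KO 6 for *Flt1* (0.0575 CPM, with 0 counts in the other KO libraries). The groups of 3 WT libraries were not tested.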

How the results depend on the processing

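Scaling by library totals gave 5676 higher and 2123 lower calls (2823 and 1250 with an absolute log2 fold change over 1), and without the newly assembled entries 2401 lower calls (1220 over 1). With library totals 27 cholesterol genes were called higher and 15 fatty acid oxidation genes lower, and *E2f1* stood at 0.03 (edgeR adjusted p = 0.867). Of 155 tested genes named in the report, 7 others lost their call and 13 gained one. DESeq2, upper quartile scaling, limma-voom, no filter and the fit of all 11 libraries cost no named gene its call. Leaving out each library in turn gave 6161 (without WT 7) to 8449 (without WT 8) calls, and only *Cd14*, *Cdkn1a* and *E2f1* among the named genes lost theirs. The same ranges were 55 to 61 higher for cell cycle, 38 to 47 for ribosome biogenesis, 22 to 23 for ATF4 targets, 15 to 21 for cholesterol and 23 to 28 for interferon genes. For lower calls they were 53 to 66 for ribosomal proteins, 34 to 53 for respiratory subunits, 19 to 21 for hypoxia, 15 to 18 for glycolysis, 20 to 24 for fatty acid oxidation and 23 to 26 for acute-phase genes. A fit with the replicate number as a block called 8183 genes and cost no named gene its call. With this block the Hippo, YAP and TGF beta list had 17 higher and 20 lower calls. Deviations of same-numbered libraries correlated at 0.68 (KO 5 and WT 5-6), -0.22 (KO 6 and WT 5-6), 0.14 (KO 7 and WT 7) and 0.71 (KO 8 and WT 8). Differently numbered libraries were not compared, so these values do not decide whether the numbers mark pairs. In the main fit the numbers were not read as pairs. Centring on chromosome medians moved the list median of glycolysis from -0.46 to -0.64 and that of acute-phase genes from -0.91 to -1.04. For fatty acid oxidation it went from -0.33 to -0.4, while the ATF4 and plasma protein medians, given above, became smaller. Centring on transcript length was chosen after seeing the data. Genes with 3 counts or fewer, under 0.13 CPM, were at the limit of detection.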

Other observations

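Newly assembled entries were lower in the KO cells more often than higher. Of 1113 tested, 97 rose and 408 fell, and they are not matched to genes here. Entries annotated as retroviral or LINE-1 sequences, chosen after their values were seen, numbered 16 tested, of which 4 rose and 6 fell. Their summed level was 19440, 22490, 22770 and 25000 CPM in KO cells and 5065, 5521 and 7682 in WT cells, without overlap. Most of it came from a single entry annotated as a retroviral envelope protein of the Fv-4 locus, with 19250, 22240, 22540 and 24740 CPM against 4906, 5353 and 7494 (log2 fold change 1.91, SE 0.22, edgeR adjusted p = 4.09e-05). Reads of such repeated sequences can be split between copies, so these values are uncertain.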
